A study of Mus musculus with 2 samples.

Results

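The Hox genes of the mouse were compared in healing skin, with cells labelled B-Gal positive set against cells labelled B-Gal negative. Members were all protein-coding genes whose symbol is Hoxa, Hoxb, Hoxc or Hoxd followed by a number only, which gave 39 genes in 4 clusters. Of these, 37 had a probe set naming the gene alone, among 19938 such genes on the array. Hoxb8 was named only together with Hoxb7 on a shared probe set and was not analysed here, and 1 further gene was also not analysed here. Both samples came from skin scar tissue of TCF reporter mice 1 week after wounding. One sample was labelled B-Gal positive and the other B-Gal negative, with 1 array each. B-Gal is read here as beta-galactosidase, the product of a reporter gene. The sources used here do not give the promoter that drives the reporter, the body site of the wound, the age of the mice, the number of mice per array or the way the cells were separated. No probe set was annotated to the reporter, so the labels were not checked against it.

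Hox genes encode homeodomain transcription factors that set position along the head-to-tail axis and along the limbs of the embryo. They lie in clusters in which the low-numbered genes act towards the head and the high-numbered genes towards the tail and the limb tips, so that genes of the same number in different clusters are paralogs. Adult skin fibroblasts keep a Hox pattern that depends on the body site they came from, and blood progenitors also use Hox genes, above all of the Hoxa and Hoxb clusters.

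The values are log2 expression values per probe set, with array medians of 6.16 for B-Gal positive and 6.18 for B-Gal negative. Low signal was judged by 1194 olfactory and vomeronasal receptor genes. The 95th percentile of their values, a log2 value of 5.59, is called the floor, and a gene over it on at least 1 array was counted as above the floor. Each difference is the B-Gal positive log2 value minus the B-Gal negative one, and a gene was counted as lower or higher at 2-fold or more on the deposited values. Where 1 array lay under the floor, the fold was taken from the other array's value to the floor and is a lower bound, written as at least N-fold. With 1 array per group there is no replicate error and no test, and the number of arrays limits the precision.

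The question was whether Hox genes differed with the B-Gal label, and where in the clusters. Of the 37 measured Hox genes, 25 were above the floor on at least 1 array and 12 were under it on both. Of the 25, 9 were lower by at least 2-fold in B-Gal positive cells, and 0 were higher by that much. The 9 were Hoxc4, Hoxc5, Hoxc6, Hoxc8, Hoxc9, Hoxc10, Hoxd8, Hoxa5 and Hoxb2. When each value below the floor was set to the floor, 8 remained at least 2-fold lower, without Hoxa5. Over all 13784 genes above the floor, 12.7% were at least 2-fold lower and 9.92% at least 2-fold higher. Among the 90 receptor genes above the floor 3.33% were at least 2-fold lower, and among all 1194 receptor genes without that filter 0.419%. The median difference was -0.60 over the 25 Hox genes and 0.06 over all genes above the floor. With each value below the floor set to the floor, these medians were -0.32 and 0.05. Only 13 of the 25 were above the floor on both arrays. Of the 25, 21 had a difference below 0, beside 45.5% of all genes above the floor. Without the filter, the median over all 37 Hox genes was -0.32, against 0.11 over all genes but the receptors. The B-Gal positive array had 14 Hox genes above the floor and the B-Gal negative array had 24. Hoxb5 alone passed the floor through the B-Gal positive array only, while 11 genes passed it through the B-Gal negative array only. Over all genes counted, 6.75% passed through the B-Gal positive array only and 5.6% through the B-Gal negative array only. A gene that passes the floor on 1 array only tends to differ by that choice, and 61.4% of the genes that passed through the B-Gal negative array alone were at least 2-fold lower. Among the 11 Hox genes of this kind, those at least 2-fold lower were Hoxa5, Hoxc5, Hoxc6, Hoxc10 and Hoxd8, a share under 61.4%. Requiring the mean of both arrays to lie above the floor left 20 Hox genes, among them 9 at least 2-fold lower, beside 12.6% of all genes under that rule. RNA of a mixed sample does not tell fewer cells of a type from less RNA per cell.

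**Figure D1:**
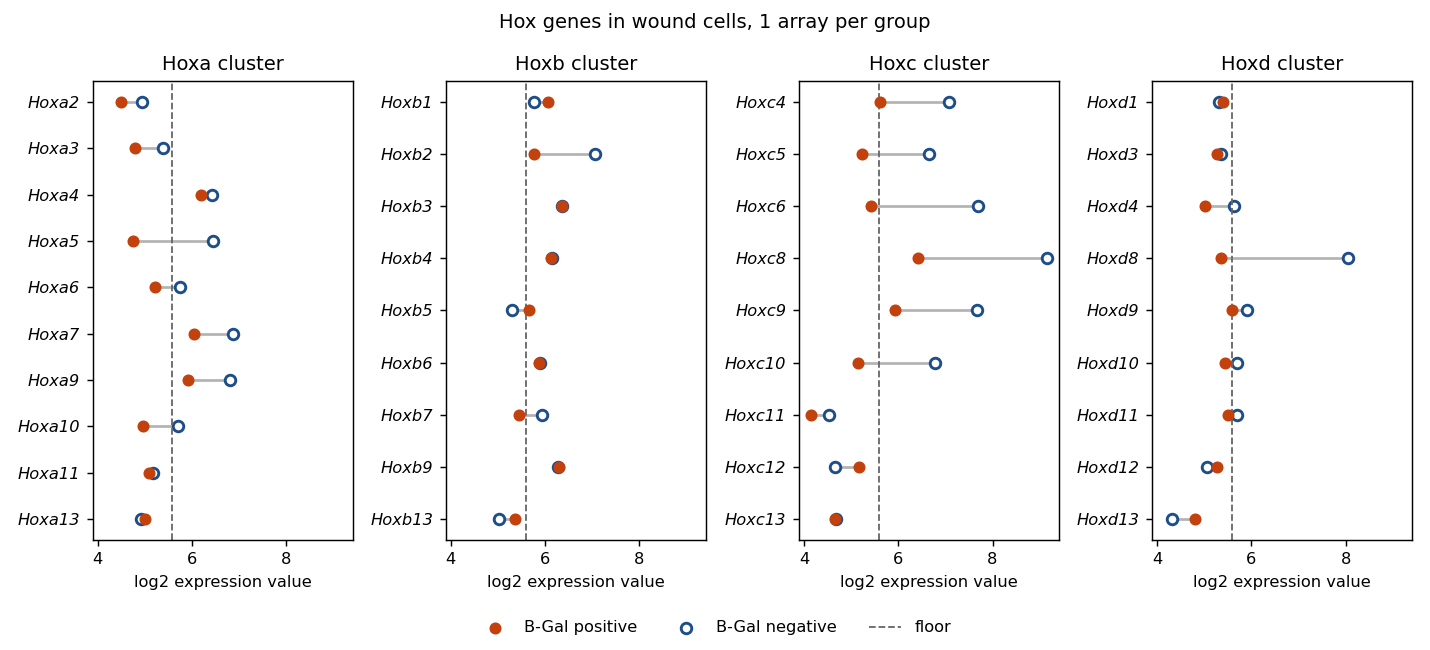
Log2 expression values of the 37 measured Hox genes, 1 panel per cluster, with filled points for the B-Gal positive array, open points for the B-Gal negative array and a dashed line at the floor of 5.59. The 6 genes Hoxc4 to Hoxc10, Hoxd8, Hoxa5 and Hoxb2 have the widest gaps between the arrays, with B-Gal positive at the lower end.

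Promoter sequences are shown for the 3 of these 9 genes that have an entry in the RefSeq promoter table, and for Hoxb4, a gene with close values on both arrays, for contrast. Of the 39 Hox genes, 22 have an entry. Each sequence runs 5′ to 3′ from 250 bases before to 50 bases after an annotated start in the build GRCm38.p6. Capitals mark matches on either strand to any of 4 motifs. These are the TATA box TATAAA, the core CTTTGAT that TCF and LEF factors bind, the homeodomain core TAATTA and TGATNNAT, a site of Pbx and Hox dimers.
Hoxc4, chr15:103034145-103034444, plus strand: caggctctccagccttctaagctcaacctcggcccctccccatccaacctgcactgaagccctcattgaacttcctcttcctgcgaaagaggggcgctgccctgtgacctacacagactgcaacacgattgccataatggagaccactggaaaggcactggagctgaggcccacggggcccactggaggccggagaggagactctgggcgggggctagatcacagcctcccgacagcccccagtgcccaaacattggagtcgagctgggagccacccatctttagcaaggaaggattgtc
Hoxd8, chr2:74704365-74704664, plus strand: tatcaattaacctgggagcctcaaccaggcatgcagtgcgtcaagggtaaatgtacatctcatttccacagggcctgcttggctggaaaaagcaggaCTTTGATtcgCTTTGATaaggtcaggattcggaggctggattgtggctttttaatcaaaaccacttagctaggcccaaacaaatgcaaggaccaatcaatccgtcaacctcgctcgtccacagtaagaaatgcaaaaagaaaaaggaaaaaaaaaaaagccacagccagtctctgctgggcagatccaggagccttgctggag
Hoxa5, chr6:52204538-52204837, minus strand: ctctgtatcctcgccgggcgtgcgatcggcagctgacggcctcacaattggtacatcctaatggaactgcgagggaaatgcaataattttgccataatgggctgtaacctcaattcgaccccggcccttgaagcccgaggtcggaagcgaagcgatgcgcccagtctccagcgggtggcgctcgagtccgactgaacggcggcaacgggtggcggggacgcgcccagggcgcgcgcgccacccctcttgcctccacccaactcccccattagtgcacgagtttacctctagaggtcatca
Hoxb4, chr11:96318017-96318316, plus strand: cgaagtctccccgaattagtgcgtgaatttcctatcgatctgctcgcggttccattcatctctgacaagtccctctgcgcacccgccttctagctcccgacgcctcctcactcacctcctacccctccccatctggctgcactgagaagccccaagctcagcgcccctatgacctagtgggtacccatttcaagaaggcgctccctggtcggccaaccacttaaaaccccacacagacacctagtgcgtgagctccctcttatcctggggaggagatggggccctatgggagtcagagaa
Hoxd8 was the only one of these 4 windows with a match, holding CTTTGAT at 2 places that do not overlap. CTTTGAT was found in 1 of the 24 Hox promoter windows and in 3.73% of the 32851 promoters of the table. TATAAA was in 4 of the 24 Hox windows and in 13.6% of all promoters, TAATTA in 2 and in 5.29%, and TGATNNAT in 4 and in 8.85%. The Hox windows held a median of 14.5 CG dinucleotides and the promoters of the table a median of 7. A match is a description of the letters, and nothing was measured here on the binding of any factor.

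The Hoxc cluster was lower as a run of neighbouring genes. All 6 measured genes from Hoxc4 to Hoxc10 were at least 2-fold lower in B-Gal positive cells, with differences between -2.75 and -1.42 and a median of -1.68. The share over all genes above the floor was 12.7%. Hoxc5, Hoxc6 and Hoxc10 passed the floor through the B-Gal negative array only. Of all genes that passed in this way, 61.4% were at least 2-fold lower. Hoxc8, which patterns the thoracic skeleton and the motor neurons of the forelimb level, had a log2 value of 6.41 in B-Gal positive cells and 9.16 in B-Gal negative cells, 6.73-fold lower. Among all genes above the floor, 3.11% had a difference below that of Hoxc8. Hoxc6, a gene of the forelimb and thoracic levels, had a value of 5.43 in B-Gal positive cells, under the floor, and 7.70 in B-Gal negative cells, at least 4.32-fold lower. Hoxc9, which in the thoracic spinal cord keeps motor neurons from a limb identity, had 5.92 in B-Gal positive cells and 7.67 in B-Gal negative cells, 3.35-fold lower. Hoxc8 and Hoxc9 were thus above the floor in both samples, while Hoxc6 was above it only in the B-Gal negative one.

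Hoxc10, active in lumbar motor neurons and hindlimb, had a log2 value of 5.15 in B-Gal positive cells and 6.77 in B-Gal negative cells, at least 2.27-fold lower. Hoxc4, at the low-numbered end of this cluster, had 5.62 in B-Gal positive cells, just above the floor, and 7.08 in B-Gal negative cells, 2.74-fold lower. Hoxc5 had 5.24 in B-Gal positive cells, under the floor, and 6.66 in B-Gal negative cells, at least 2.11-fold lower. Adding an offset of 32 on the linear scale took Hoxc5 to a difference of -0.93, under 2-fold. In humans the genes HOXC4, HOXC5 and HOXC6 share an upstream exon in some transcripts. Whether the mouse probe sets share such transcripts was not tested. The high-numbered end of the cluster was under the floor on both arrays. Hoxc11, Hoxc12 and Hoxc13, the last needed for hair shaft and nail formation, had log2 values between 4.15 and 5.17 in B-Gal positive cells and between 4.52 and 4.68 in B-Gal negative cells. Values under the floor have no order, so no direction is given for these 3 genes.

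The Hoxa cluster held 1 of the 9 genes, 16.7% of its genes above the floor, beside 12.7% of all genes. Hoxa5, which patterns the neck and upper thorax and is needed for lung and airway formation, had a log2 value of 4.74 in B-Gal positive cells, under the floor, and 6.45 in B-Gal negative cells. Its difference was -1.71 as deposited, but against the floor it was at least 1.82-fold lower, which is under 2-fold. The annotated span of Hoxa3 includes Hoxa4, Hoxa5 and Hoxa6, and Hoxa3 itself was under the floor on both arrays. The other 5 Hoxa genes above the floor differed by less than 2-fold, all of them on the lower side. Of these 5, Hoxa6 and Hoxa10 passed the floor through the B-Gal negative array only, so their direction was fixed by that filter. Hoxa9, a gene of blood progenitors and posterior trunk, had 5.92 in B-Gal positive cells and 6.82 in B-Gal negative cells, a difference of -0.90. Hoxa7, which acts in thoracic patterning, had 6.04 in B-Gal positive cells and 6.87 in B-Gal negative cells, a difference of -0.84. Both were above the floor in both samples and lay short of 2-fold.

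Hoxa4, a gene of the neck levels, had a log2 value of 6.19 in B-Gal positive cells, against 6.43 in B-Gal negative cells, a difference of -0.24. Hoxa10, known for its roles in the uterus and the lumbar spine, and Hoxa6 were under the floor in B-Gal positive cells, with differences of -0.76 and -0.53. The remaining Hoxa genes, Hoxa2 of the hindbrain and branchial arches, Hoxa3 of the throat organs, Hoxa11 of the forearm and uterus and Hoxa13 of the digits, were under the floor on both arrays. The 6 Hoxa genes above the floor had a median difference of -0.80.

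The Hoxb cluster had the median difference closest to 0 of the 4 clusters, -0.01 over its 8 genes above the floor. Its 1 gene at least 2-fold lower was Hoxb2, which patterns the hindbrain. Hoxb2 had a log2 value of 5.76 in B-Gal positive cells and 7.06 in B-Gal negative cells, 2.46-fold lower. With the offset of 32 its difference was -0.94, under 2-fold. The share lower in this cluster, 12.5%, was close to the 12.7% of all genes above the floor. Hoxb4, a regulator of blood stem cell renewal, had 6.13 in B-Gal positive cells and 6.16 in B-Gal negative cells. Hoxb6 had 5.88 and Hoxb9 6.29 in B-Gal positive cells, against 5.89 for Hoxb6 and 6.27 for Hoxb9 in B-Gal negative cells. Hoxb3 had the same deposited value, 6.36, on both arrays to 5 decimals. Equal values occurred in 2.13% of all probe sets and in 0.595% of genes above the floor.

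Hoxb1, which specifies a segment of the hindbrain, had 6.07 in B-Gal positive cells and 5.77 in B-Gal negative cells, a difference of 0.30. Hoxb5, known from enteric nerve and lung development, had 5.65 in B-Gal positive cells and a value below the floor, 5.30, in B-Gal negative cells. Neither came near 2-fold. Hoxb7 was on the other side at -0.49, with a value of 5.45 in B-Gal positive cells and 5.94 in B-Gal negative cells. Hoxb13, a gene of the tail end and the prostate, was under the floor on both arrays. Of the Hoxb genes, 6 were above the floor in both samples, against 3 Hoxa, 3 Hoxc and 1 Hoxd gene. The annotated spans of Hoxb3 and Hoxb4 overlap, so their probe sets may not be independent.

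In the Hoxd cluster the difference lay in 1 gene, 20% of its genes above the floor, beside 12.7% of all genes. Hoxd8 had a log2 value of 5.35 in B-Gal positive cells, under the floor, and 8.05 in B-Gal negative cells, at least 5.50-fold lower. The other 4 Hoxd genes above the floor, Hoxd4, Hoxd9, Hoxd10 and Hoxd11, differed by -0.60, -0.32, -0.24 and -0.21. Their values ran from 5.02 to 5.59 in B-Gal positive cells and from 5.62 to 5.91, close to the floor, in B-Gal negative cells. Among them only Hoxd9 was above the floor on both arrays, and the filter fixed the direction of the others. Hoxd1, Hoxd3, and the limb genes Hoxd12 and Hoxd13 were under the floor on both arrays. The annotated spans of Hoxd3 and Hoxd4 overlap, as do those of Hoxd10 and Hoxd11.

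**Figure D2:**
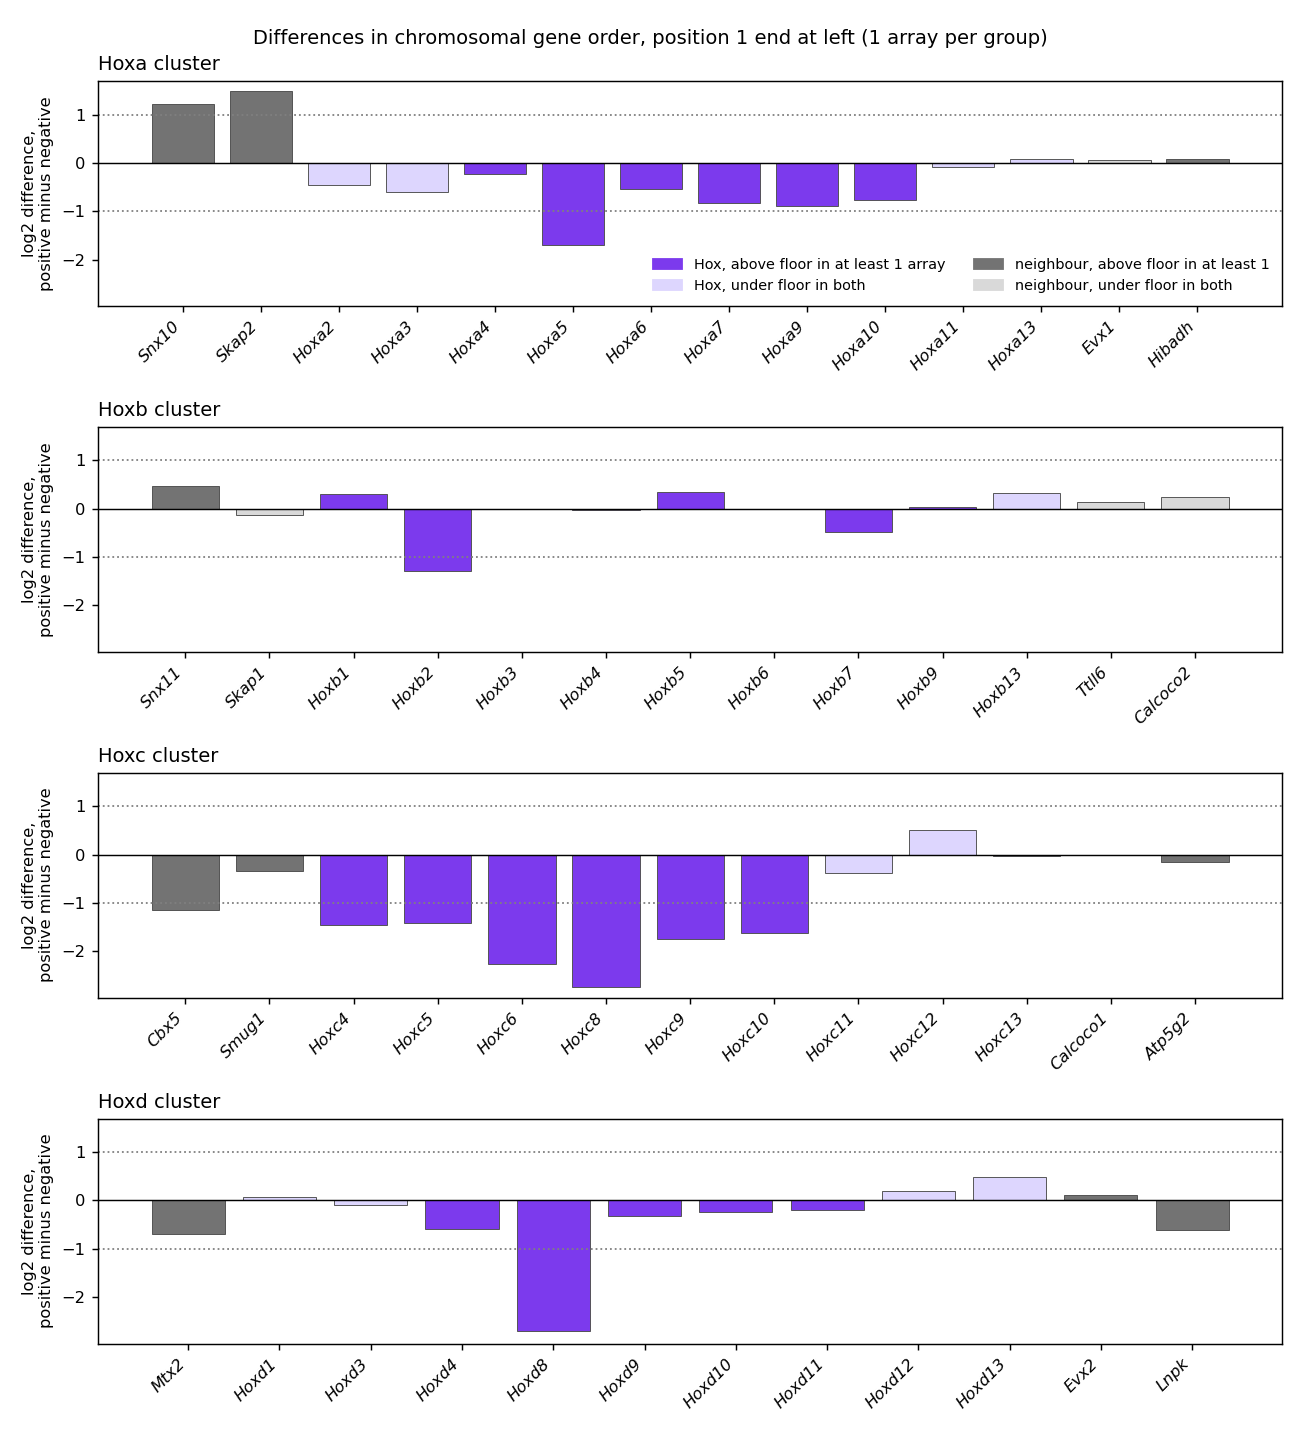
Difference in log2 value, B-Gal positive minus B-Gal negative, of each measured Hox gene and of the nearest protein-coding neighbours in chromosomal order, with dotted lines at 2-fold and pale bars for genes under the floor on both arrays. The Hoxc genes from Hoxc4 to Hoxc10 form an unbroken run below -1, while in the Hoxd cluster only Hoxd8 does so.

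Ordered by paralog position, 6 of the 9 lower genes had numbers from 4 to 8, 2 had numbers from 9 to 13 and 1 had a number from 1 to 3. These are 42.9%, 25% and 33.3% of the genes above the floor in each class, beside 12.7% of all genes. All 14 measured genes with numbers from 4 to 8 were above the floor on at least 1 array, with a median difference of -0.72. Of these 14, 7 passed through the B-Gal negative array only and 1 through the B-Gal positive array only. The lower genes Hoxa5, Hoxc5, Hoxc6 and Hoxd8 are among the 7. The filter fixes the direction of a gene that passes on 1 array only. Of the 16 genes with numbers from 9 to 13, 8 were above the floor, with a median difference of -0.54. Of these 8, 4 passed through the B-Gal negative array only. Of the 7 genes with numbers from 1 to 3, 3 were above the floor, with differences of -1.30, 0.00 and 0.30. Position 8 was the one position with more than 1 measured gene at which all were at least 2-fold lower, through Hoxc8 and Hoxd8. At position 9 all 4 paralogs were above the floor on both arrays, Hoxd9 in B-Gal positive cells only just. Hoxc9 differed by -1.74, Hoxa9 by -0.90, Hoxd9 by -0.32 and Hoxb9 by 0.03. Hoxc9 thus had the lowest difference at this position. At position 4 Hoxc4 differed by -1.46, Hoxa4 by -0.24 and Hoxb4 by -0.02, all above the floor on both arrays, while Hoxd4 lay under it in B-Gal positive cells. At position 5 Hoxa5 and Hoxc5 were lower as deposited and Hoxb5 was not. Both lay under the floor in B-Gal positive cells, so no order is given between them. At position 6 Hoxc6 was at least 4.32-fold and Hoxa6 at least 1.12-fold lower, and Hoxb6 differed by -0.02. From position 11 upwards 1 of 9 measured genes, Hoxd11, was above the floor, and it differed by -0.21. Without replicates these differences between paralogs were not tested.

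**Figure D3:**
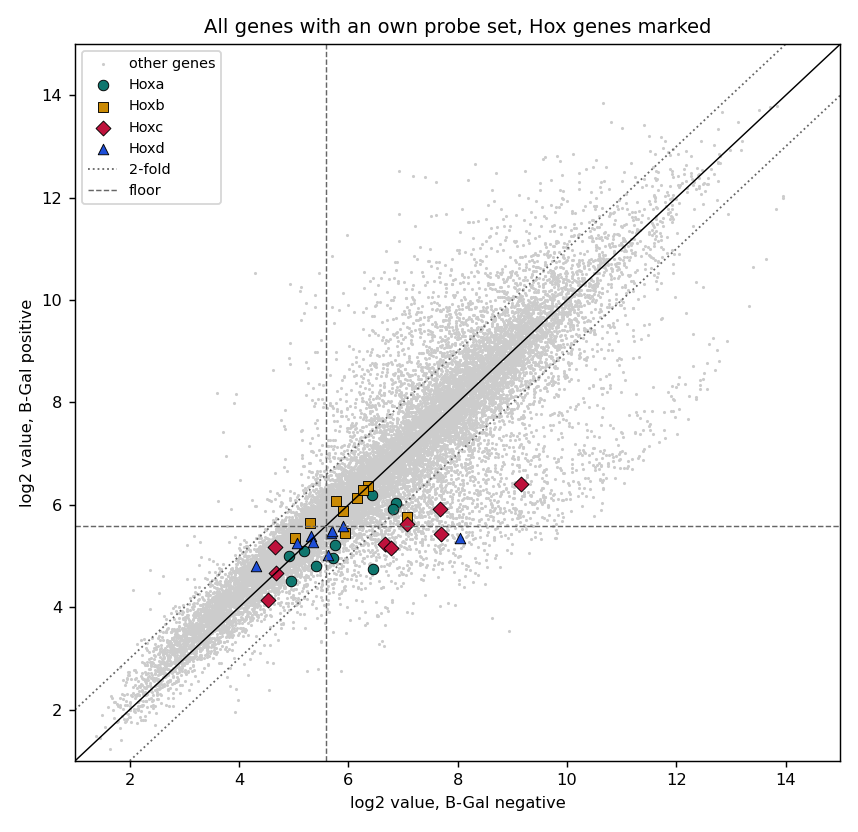
Log2 values of 19938 genes in B-Gal positive cells (vertical axis) and B-Gal negative cells (horizontal axis), with Hox genes marked by cluster, dashed lines at the floor and dotted lines at 2-fold. The 9 lower Hox genes lie below the lower dotted line, and no Hox gene above the floor lies above the upper one.

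The genes that flank the clusters were set beside them. Of 16 nearest protein-coding neighbours, 2 on each side of each cluster, 15 were measured and 11 were above the floor. Among the 11, 1 was at least 2-fold lower and 2 at least 2-fold higher. The shares over all genes above the floor were 12.7% and 9.92%. Cbx5, which encodes a heterochromatin protein and lies beyond the Hoxc4 end, was the only one at least 2-fold lower, with a log2 value of 7.36 in B-Gal positive cells and 8.51 in B-Gal negative cells. Between Cbx5 and Hoxc4 lies Smug1, a DNA repair glycosylase gene, which differed by -0.35. At the other end of the Hoxc cluster Calcoco1 had a value of 8.69 on both arrays, and Atp5g2, an ATP synthase subunit gene, differed by -0.16. Beside the Hoxa cluster, Skap2, an adaptor gene of leukocytes, and Snx10, a sorting nexin gene, were 1.48 and 1.23 higher on the log2 scale in B-Gal positive cells. Beside the Hoxd cluster Mtx2 and Lnpk differed by -0.70 and -0.61, and Evx2 by 0.10.

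The clusters also hold microRNA genes. Their sequences are given because members of a family with a shared seed lie in different clusters. Mir196a-2 lies between Hoxc9 and Hoxc10, Mir196b between Hoxa9 and Hoxa10, and Mir196a-1 between Hoxb9 and Hoxb13. Mir10a lies within the annotated span of Hoxb3, Mir10b within those of Hoxd3 and Hoxd4, and Mir615 within Hoxc5. In mice miR-196 directs cleavage of the Hoxb8 messenger RNA. Mature sequences from RefSeq (GRCm38.p6) are shown with the seed, bases 2 to 8, in capitals.
miR-196a-5p: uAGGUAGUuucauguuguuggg
miR-196b-5p: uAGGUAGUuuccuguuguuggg
miR-10a-5p: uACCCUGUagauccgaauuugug
miR-10b-5p: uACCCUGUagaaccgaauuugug
miR-615-5p: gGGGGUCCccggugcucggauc
miR-615-3p: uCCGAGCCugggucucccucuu
The miR-196 members share 1 seed and the miR-10 members share another. Probe sets of these genes report precursor or primary transcripts as far as the annotation says, and mature forms were not measured here. All 5 miR-10 and miR-196 genes were under the floor on both arrays. Mir615 was above it, with a log2 value of 7.46 in B-Gal positive cells and 7.38 in B-Gal negative cells, a difference of 0.08, whereas its host Hoxc5 differed by -1.42. Of 18 non-coding genes listed for the clusters, 10 had their own probe set and Mir615 was the only one above the floor, while Hottip, Haglr, Hoxaas2 and Hoxd3os1 were under it.

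Hox proteins bind DNA with partner homeodomain proteins. Of 10 measured cofactor genes, all above the floor, 3 were at least 2-fold lower in B-Gal positive cells and 1 was higher, around a median difference of -0.08. Of all genes above the floor, 12.7% were at least 2-fold lower and 9.92% higher. Meis1, a cofactor that also marks blood progenitors, had a log2 value of 5.85 in B-Gal positive cells and 8.59 in B-Gal negative cells, 6.68-fold lower. Meis2, its close relative, had 5.42 in B-Gal positive cells, under the floor, and 7.98 in B-Gal negative cells, at least 5.24-fold lower. Pknox2 differed by -1.20, but against the floor it was at least 1.43-fold lower, under 2-fold. Tgif1, a repressor of the same homeodomain class that also acts on Smad signalling, was 2.77-fold higher, with 11.43 in B-Gal positive cells and 9.96 in B-Gal negative cells.

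Polycomb proteins keep Hox genes silent, and of 26 measured polycomb genes 0 were at least 2-fold lower and 1 was higher, with a median of 0.09. Both counts are below the shares of all genes above the floor, 12.7% lower and 9.92% higher. The higher one was Jarid2, which helps to place the polycomb complex, with 10.04 in B-Gal positive cells and 8.94 in B-Gal negative cells, 2.15-fold higher. Pcgf3 and Pcgf2 differed by -0.91 each and Pcgf5 by 0.71. Trithorax proteins and demethylases of histone H3 lysine 27 keep Hox genes active. In a list of 14 measured genes, which holds such genes and also Dot1l and Ctcf, 1 was lower and 0 were higher at 2-fold, with a median of 0.29. The share lower was 7.14%, under the 12.7% of all genes. Psip1, which tethers a trithorax methyltransferase to chromatin, was 2.71-fold lower, while Dot1l, Kdm6a and Kmt2d differed by 0.97, 0.87 and 0.77. At 1.5-fold 5 of the 14 were higher, beside 18.8% of all genes above the floor.

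Upstream regulators of the clusters, such as retinoic acid enzymes and receptors, had 15 members above the floor, of which 5 were lower by 2-fold or more and 1 was higher. Aldh1a1, a retinoic acid forming enzyme, was 5.93-fold lower, with 6.21 in B-Gal positive cells and 8.78 in B-Gal negative cells. Rarb, a retinoic acid receptor and itself a retinoic acid target, was at least 3.37-fold lower. The growth factor gene Gdf11, which helps to switch trunk to tail Hox codes, was 2.79-fold lower, and the receptor gene Fgfr1 4.61-fold lower. The list median was 0.07. Its share of lower genes was 33.3%, beside 12.7% of all genes above the floor, and 9.92% of all genes were higher.

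Other transcription factors that carry position or identity in mesenchyme had 28 members above the floor, of which 12 were lower by 2-fold or more and 0 were higher, around a median of -0.46. Shox2 and Emx2, counted among the 12, were at least 1.78-fold and at least 1.66-fold lower against the floor, under 2-fold. Tbx15, which patterns dorsal skin and trunk dermis, was 17.9-fold lower, with 5.76 in B-Gal positive cells and 9.92 in B-Gal negative cells. Prrx1, a homeobox gene of limb and dermal mesenchyme, was 16.6-fold lower, with 7.003 in B-Gal positive cells and 11.06 in B-Gal negative cells. Twist2, a gene of dermal progenitors, was 9.91-fold lower and Tbx18 at least 5.88-fold lower. Homeobox genes outside the Hox clusters, 154 of them measured, had 108 members above the floor, of which 21 were lower and 6 higher by this threshold, around a median of 0.09. Shox2, Emx2, Pknox2 and Mkx, counted among the 21, were under 2-fold when taken against the floor. The list of other homeobox genes shares 28 genes with the list of mesenchymal factors and 11 with the cofactors. Besides Prrx1 and Meis1, the members named by size of difference were Zeb1, 7.58-fold lower, and Meox2, at least 7.02-fold lower. Among genes above the floor, 36% of the Hox genes and 19.4% of these other homeobox genes were at least 2-fold lower, beside the 12.7% of all genes given above.

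Genes reported downstream of Hox proteins in other settings had 15 members above the floor, of which 8 were lower by 2-fold or more and 1 was higher, around a median of -1.22. The share lower was 53.3%, beside 12.7% of all genes above the floor. Fgf2, counted among the 8, was at least 1.23-fold lower against the floor, under 2-fold. Thbs2, an inhibitor of angiogenesis that human HOXA5 is reported to raise, was 19.6-fold lower, with 8.26 in B-Gal positive cells and 12.56 in B-Gal negative cells. Wnt5a, linked to human HOXA13 in distal fibroblasts, was at least 9.14-fold lower, although Hoxa13 itself was under the floor on both arrays. Itgb3, an integrin subunit gene linked to human HOXD3, was 4.97-fold lower, although Hoxd3 was also under the floor on both arrays. Ephb4 was at least 4.65-fold lower. The list shares Col1a1 with the fibroblast markers and Kdr with the endothelial markers.

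**Figure D4:**
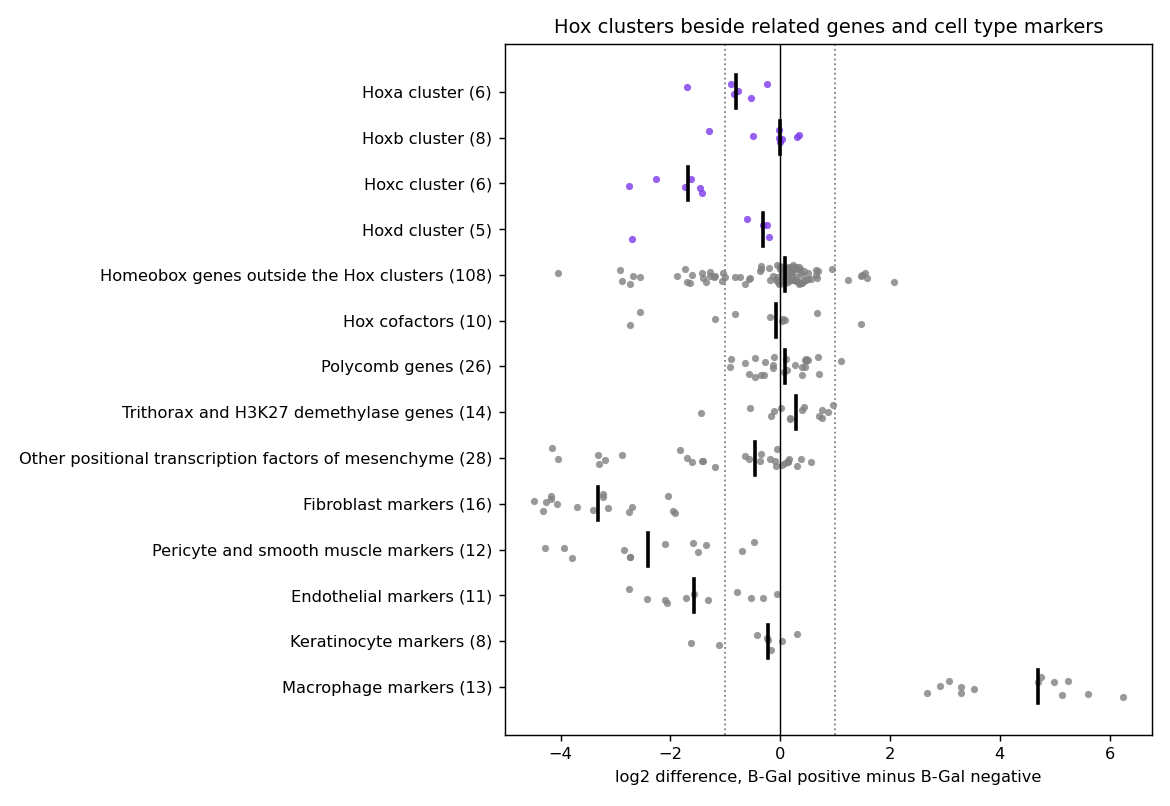
Differences in log2 value, B-Gal positive minus B-Gal negative, of the genes above the floor in each Hox cluster, in related lists and in cell type marker lists, with the number of genes in brackets, black bars at the medians and dotted lines at 2-fold. The Hoxc genes lie between -2.75 and -1.42, the fibroblast markers between -4.48 and -1.91 and the macrophage markers between 2.66 and 6.24.

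Markers of several cell types also differed between these samples, some lower and some higher in B-Gal positive cells. The lists were chosen with earlier results of these data known, so their counts are descriptions. Beside them, 12.7% of all genes above the floor were at least 2-fold lower and 9.92% at least 2-fold higher. All 16 fibroblast markers were at least 2-fold lower in B-Gal positive cells, with a median of -3.32, and all 16 were above the floor in both samples. Summed over the measured members, their linear value was 15840 in B-Gal positive cells and 93254 in B-Gal negative cells. All 13 measured macrophage markers of the 14 listed were at least 2-fold higher, with a median of 4.70 and a summed linear value of 53741 in B-Gal positive cells, against 4069 in B-Gal negative cells. On the B-Gal positive array 13 of them passed the floor, and on the B-Gal negative array 11. Pericyte and smooth muscle markers were lower for 10 of 12 (median -2.42, summed 1188 in B-Gal positive and 11472 in B-Gal negative cells). Endothelial markers were lower for 7 of 11 above the floor (median -1.56, summed 1011 in B-Gal positive and 2904 in B-Gal negative cells). Mast cell markers were lower for 8 of 9 (median -2.66, summed 439 in B-Gal positive and 3107 in B-Gal negative cells).

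Keratinocyte markers were lower for 2 of 8 above the floor (median -0.23, summed 610 in B-Gal positive and 782 in B-Gal negative cells). For this and the following lists, the shares of all genes above the floor are again 12.7% lower and 9.92% higher. Blood progenitor markers, a list that holds Meis1 and shares Kit and Gata2 with the mast cell markers, were lower for 4 of 10 and higher for 1, Spi1 (median -0.53, summed 2868 in B-Gal positive and 6631 in B-Gal negative cells). T and NK cell markers were lower for 3 of 7 and higher for 1 (median -0.77, summed 418 in B-Gal positive and 729 in B-Gal negative cells). Among the lower ones, Ncr1 was at least 1.03-fold lower against the floor, under 2-fold. Skeletal muscle markers (median 0.25, summed 588 in B-Gal positive and 533 in B-Gal negative cells) were lower for 0 of 5 and higher for 1. That gene, Myoz1, was at least 1.56-fold higher against the floor, under 2-fold. Schwann cell and melanocyte markers were lower or higher at 2-fold for 0 of 4 (median 0.24, summed 487 in B-Gal positive and 439 in B-Gal negative cells). The array gives no values of 0, so no marker was at 0. The part of these cell types in the Hox differences was not tested. With 1 array per group, cell composition, the reporter label and the array itself cannot be told apart.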

How the data were processed

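Total RNA of 2 samples was hybridised to Affymetrix Mouse Gene 1.0 ST arrays, per the labels' protocols. The deposited table holds 1 log2 expression value per probe set and array. The log2 scale was inferred from the values (1.16 to 14.8). Partek is named, with no version, per the submitters' processing notes, and the sources used here give no background correction, normalization or summarization. Of 28853 probe sets, 21789 name 1 gene, 1621 several and 5443 are not listed in the platform annotation. RefSeq gene IDs (GRCm38.p6) matched 21698 of those naming 1 gene, and 0 symbols changed. Of several probe sets of a gene the one with the highest mean was used, and 0 Hox genes had several. No scaling was added. Fold thresholds, floor and alternatives are stated with the results, and no p-value was computed. Given in full are Hox genes at least 2-fold different, and up to 4 members of each list by size of difference. Members and lists were chosen with earlier results of these data known. Python 3.11.15, pandas 2.3.3 and statsmodels 0.14.6 were used.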

Additional observations from a re-analysis of the deposited data

How the results depend on the processing

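No paired analysis was possible because each group has 1 array, and for the same reason no array could be left out. Across the alternatives no called Hox difference changed sign. The 6 genes from Hoxc4 to Hoxc10 all stayed at least 2-fold lower under median centring, loess, quantile normalization and values raised to the floor. With the offset of 32, 5 of 6 did. All 6 passed every filter, but a filter selects genes and cannot change the difference of a single gene. Counts are of genes at the 2-fold threshold unless another is named. With the offset, Hoxb2 (-0.94) and Hoxc5 (-0.93) lay under 2-fold, the count of lower genes was 0 in the Hoxb cluster and at positions 1 to 3 and 10 among other homeobox genes, and the count of higher genes was 0 among upstream regulators and downstream genes. With loess (span 0.4, 3 iterations) 0 upstream regulators were higher. With values raised to the floor Hoxa5 differed by -0.86, the Hoxa cluster had 0 lower genes and the median of downstream genes was -0.52. Over all genes above the floor, 9.97% were lower and 8.18% higher with the offset, 9.09% higher with loess and 11.6% lower with raised values. With a floor from the 99th receptor percentile (6.27) 14 Hox genes were left, 9 of them lower, beside 14.7% of all genes above that floor. Medians there were -1.44 for Hox genes, -2.70 for the Hoxd cluster (1 gene), -0.88 for upstream regulators and -1.52 for mesenchymal factors. For positions 1 to 3, 4 to 8 and 9 to 13 they were -0.65, -1.58 and -1.26. With the mean of both arrays above the floor, medians were -1.42 for positions 4 to 8 and -0.87 for upstream regulators. At 1.5-fold the lower genes numbered 4 in the Hoxa cluster, 2 in Hoxd, 4 at positions 9 to 13 and 3 among polycomb genes. The higher ones numbered 2 among cofactors, 3 polycomb, 5 trithorax, 4 upstream, 2 downstream and 11 other homeobox genes. At this threshold 20.1% of all genes above the floor were lower and 18.8% higher. At 4-fold 3 Hox genes were lower, 2 of them in the Hoxc cluster and 0 in Hoxa or Hoxb, all 3 at positions 4 to 8 and 0 at positions 1 to 3 or 9 to 13. At 4-fold 0 trithorax genes, 2 upstream regulators, 6 mesenchymal factors, 4 downstream genes and 6 other homeobox genes were lower. The higher ones numbered 0 among cofactors, polycomb genes, upstream regulators and downstream genes, and 1 among other homeobox genes. Of all genes above the floor, 5.72% were lower and 3.01% higher at 4-fold. With positions split as 1 to 4, 5 to 8 and 9 to 13, 2 genes of the first class were lower. Apart from these and the Hoxa5, Hoxb2 and Hoxc5 values, 652 results under an alternative stayed close. For a count this meant within 1.5 times, and for a median within 0.58 on the log2 scale. A median could thus move by up to that much and still be counted as close. For a single gene it meant staying on the same side of 2-fold. Single-gene values could not move under the filters or the mean over probe sets, so those results were fixed in advance. The causes were not tested. Array number, and values close to the floor, limit what can be read from single genes.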
